A study of Mus musculus with 29 samples.

Results

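ZFP319-HA peaks lay mainly at GA dinucleotide repeats. Of the 14645 peaks in its ChIP-seq list, 73.7% held a perfect GA run of at least 20 bp, against 1.21% of windows 5 kb away. The peaks described here are all those of the list for HA-tagged ZFP319, with none left out, and they make up 4.80% of the 304922 peaks in the 28 lists of the study. The study compared how many sites different transcription factors (TFs) occupied in 1 cell type, to relate genome occupancy to other TF properties. Each TF carried HA tags at its C-terminus and was expressed in NIH-3T3, a mouse embryonic fibroblast line, from a lentiviral transgene induced overnight with 500 ng/ml doxycycline. Chromatin was fixed with 1% formaldehyde and precipitated with an anti-HA antibody, and all constructs shared these conditions. The 28 lists cover 24 constructs: 21 wild-type TFs, the FOXA1 mutants RR and SW, and OCT4-HA with SOX2-YPET.

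ZFP319-HA has a single list, so its values have no replicate error, and intervals below are 95% exact intervals that cover counting error over peaks only. The lists hold positions without heights or read numbers. Depth is therefore unknown, and a site occupied in few cells cannot be told apart from one weakly occupied in many. Neither transgene level nor fibroblast markers could be checked from these lists. The paper reports that induced levels were roughly comparable between its TFs. The antibody sees the tag alone, so the peaks are those of an overexpressed protein and not of endogenous ZFP319. Peak widths ran from 221 to 1841 bp, with a median of 300 bp and quartiles of 254 and 380 bp. The list ranks 9th by peak number among the 28.

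ZFP319 is a C2H2 zinc finger protein. Proteins of this class read DNA through arrays of small zinc-binding modules, each contacting a few neighbouring bases, and many of them have no well-described target sequence. GA repeats are stretches in which G and A alternate on one strand and C and T on the other. They are simple tandem repeats, common in rodent genomes, and in Drosophila another zinc finger protein, the GAGA factor, is known to bind short stretches of this kind in promoters.

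The sequences show what such a peak looks like. In the following 4, chosen as the longest GA runs in peaks that overlapped no other construct and no exon, the run is in capitals and the letters are those of the GRCm38 plus strand.
chr1:145100338-145100537, between genes: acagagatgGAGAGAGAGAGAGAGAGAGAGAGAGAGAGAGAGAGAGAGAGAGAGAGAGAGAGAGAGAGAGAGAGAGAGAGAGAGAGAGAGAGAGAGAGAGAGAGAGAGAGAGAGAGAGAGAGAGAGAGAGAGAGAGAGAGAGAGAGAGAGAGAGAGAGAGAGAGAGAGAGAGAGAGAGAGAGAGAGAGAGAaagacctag
chr6:134947201-134947400, in a noncoding gene: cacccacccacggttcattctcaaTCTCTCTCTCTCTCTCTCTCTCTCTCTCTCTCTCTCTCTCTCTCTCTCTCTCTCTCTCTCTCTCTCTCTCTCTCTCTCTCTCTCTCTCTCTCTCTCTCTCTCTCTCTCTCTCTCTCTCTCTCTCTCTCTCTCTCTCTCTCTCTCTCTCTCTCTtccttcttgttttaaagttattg
chr7:63928651-63928827, intron of Klf13: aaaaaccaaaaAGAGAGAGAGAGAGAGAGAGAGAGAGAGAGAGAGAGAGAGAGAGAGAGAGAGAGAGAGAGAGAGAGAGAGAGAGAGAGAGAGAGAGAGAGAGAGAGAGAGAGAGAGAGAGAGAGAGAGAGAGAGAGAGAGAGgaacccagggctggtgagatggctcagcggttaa
chr13:98299301-98299500, intron of Gm21976: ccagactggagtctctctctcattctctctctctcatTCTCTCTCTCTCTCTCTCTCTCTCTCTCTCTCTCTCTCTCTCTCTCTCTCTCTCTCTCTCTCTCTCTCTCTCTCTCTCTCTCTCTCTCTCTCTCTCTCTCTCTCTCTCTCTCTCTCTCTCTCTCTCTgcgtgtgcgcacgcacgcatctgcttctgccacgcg
These runs are 182, 153, 132 and 127 bp long, at the far end of the lengths seen, and either strand can carry the purines. The longest run in any ZFP319-HA peak was 266 bp. On chromosome 13 shorter stretches of the same kind sit beside the run.

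A more usual site has a run near the median length of 46 bp. The following 3 come from genes with many peaks, and were chosen after their values were seen, as the run closest to that median in an unshared peak outside exons.
chr5:4871080-4871199, intron of Cdk14: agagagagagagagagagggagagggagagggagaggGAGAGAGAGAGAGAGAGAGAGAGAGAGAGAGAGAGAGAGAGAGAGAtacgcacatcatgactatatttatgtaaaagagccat
chr11:44786778-44786897, intron of Ebf1: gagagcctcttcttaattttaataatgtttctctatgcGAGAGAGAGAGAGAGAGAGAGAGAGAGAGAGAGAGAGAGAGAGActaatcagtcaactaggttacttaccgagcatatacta
chr6:144012640-144012759, intron of Sox5: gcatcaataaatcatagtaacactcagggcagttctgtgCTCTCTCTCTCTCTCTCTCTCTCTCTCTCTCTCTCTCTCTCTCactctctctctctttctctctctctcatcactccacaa
The runs in capitals measure 46, 44 and 43 bp. In Cdk14 and Sox5 shorter purine or pyrimidine stretches sit beside the run, and in Ebf1 the run stands alone.

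A simple tandem repeat was defined as a perfect run of at least 20 bp and 3 copies of a unit of 1 to 6 bases. Each peak was set against a window of its own width placed 5 kb downstream and free of peaks in all 28 lists, which 13164 of the 14645 peaks had. At least 1 such repeat was present in 77.8% of peaks (interval 77.1 to 78.5) and in 11.7% of windows, a log2 odds ratio of 4.73 (4.63 to 4.82). The GA unit accounted for nearly all of this, with 10792 peaks (73.7%, 73.0 to 74.4) against 159 windows (1.21%) and a log2 odds ratio of 7.84 (7.60 to 8.07). Both differences passed Fisher's exact test, two-sided, at 0.05, with p too small for the software to represent. In these tests peaks and windows are the units, so they speak of this list and not of repeat experiments.

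The GA run lay at the middle of the peak. Its centre was a median of 24.5 bp from the peak centre, and within 50 bp in 76.2% of peaks with a run. At the exact centre, 36% of peaks were covered by a GA run, against 0.171% at 990 bp from it, and 0.146% of control windows were covered at theirs. Most peaks with a run held 1 (81.2%), 16.5% held 2 and 2.32% held 3 or more, up to 9. The median peak width was 292 bp with 1 run and 346 bp with 3 or more.

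**Figure D1:**
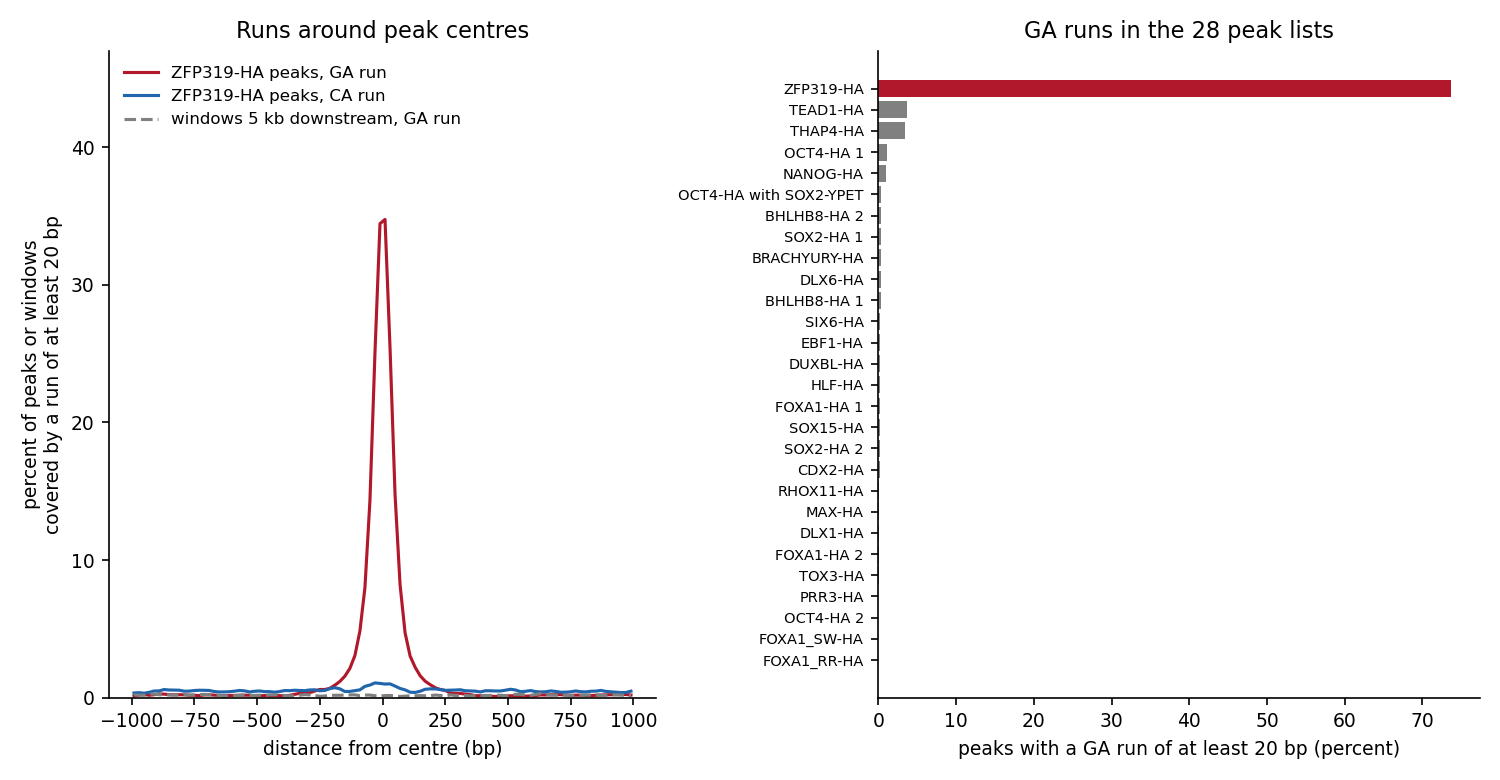
Left: percent of ZFP319-HA peaks covered by a GA run (red) or a CA run (blue) of at least 20 bp at each distance in bp from the peak centre, averaged over 20 bp, with GA runs in windows 5 kb downstream dashed in grey. Right: percent of peaks with a GA run in each of the 28 lists; ZFP319-HA stands at 73.7% and no other construct is above 3.62%.

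Other repeat units were tested in the same way, 26 in all, of which 23 (88.5%) differed between peaks and windows after Benjamini-Hochberg adjustment. Units made of A and G alone were mostly higher in peaks, 10 of 13, with 1 lower. Of the 13 units with C or T, 5 were higher and 7 lower. The AAAG unit was in 5.82% of peaks and 0.448% of windows, AAGG in 2.40% and 0.319%, AGAGGG in 1.93% and 0.137%, and AAAGAG in 0.635% and 0.0152%. CA runs, the commonest dinucleotide run in the mouse genome, were in 7.0% of peaks against 3.97% of windows, a log2 odds ratio of 0.87 (0.71 to 1.02). Of these CA peaks only 77 had no GA run: among the 3853 peaks without one 2.00% had a CA run, below the 3.73% of windows without a GA run. Units lower in peaks were rich in A and T: runs of A alone were in 0.792% of peaks and 1.25% of windows, AT runs in 0.123% and 0.334%, and AAAC runs in 0.294% and 0.684%.

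Short GA stretches were present even where no run reached 20 bp. A GA stretch of at least 8 bp was in 95.4% of peaks and 8.03% of windows, and only 669 peaks (4.57%) had none. To look for words without choosing and testing on the same peaks, all 8-letter words in the central 200 bp were ranked on odd-numbered autosomes and X and tested on even-numbered autosomes, counting both strands. The first was GAGAGAGA, in 91.3% of odd-chromosome peaks against 3.88% of windows. On even chromosomes it was in 5604 of 6128 peaks (91.4%, 90.7 to 92.1) and 3.53% of windows, a log2 odds ratio of 8.19 (7.94 to 8.43). Of the 20 leading words, 18 were purines only on one strand. In central parts without any tandem repeat, GAGAGAGA still led, with 69.7% of peaks against 2.59% of windows.

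The peaks richest in this word show how several runs can be joined with small interruptions. The following 140 bp stretches, with every GAGAGAGA or its complement in capitals, are from the 4 unshared peaks outside exons with the most copies, which held at least 97 overlapping copies each.
chr10:43450374-43450513, intron of Pdss2: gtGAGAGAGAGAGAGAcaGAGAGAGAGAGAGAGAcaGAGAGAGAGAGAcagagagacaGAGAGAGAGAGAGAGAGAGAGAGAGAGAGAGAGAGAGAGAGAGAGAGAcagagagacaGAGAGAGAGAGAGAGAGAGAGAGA
chr17:68811335-68811474, between genes: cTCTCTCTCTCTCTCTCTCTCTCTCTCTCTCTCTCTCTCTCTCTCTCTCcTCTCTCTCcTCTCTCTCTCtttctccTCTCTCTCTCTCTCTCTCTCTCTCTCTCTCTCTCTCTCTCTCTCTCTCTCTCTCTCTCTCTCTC
chr3:82904875-82905014, in a noncoding gene: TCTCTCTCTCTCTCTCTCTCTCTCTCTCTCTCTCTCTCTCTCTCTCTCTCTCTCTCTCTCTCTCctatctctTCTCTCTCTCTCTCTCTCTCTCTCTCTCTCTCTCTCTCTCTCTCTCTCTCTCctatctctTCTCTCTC
chr5:29941167-29941306, between genes: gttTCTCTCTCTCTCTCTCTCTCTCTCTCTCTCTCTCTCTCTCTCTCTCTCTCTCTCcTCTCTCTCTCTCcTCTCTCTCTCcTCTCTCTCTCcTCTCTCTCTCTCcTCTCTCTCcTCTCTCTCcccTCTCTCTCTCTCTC
In each, single bases or short breaks such as ca, c or ctatctct interrupt an otherwise regular alternation.

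Peaks without a long GA run still held purine-rich DNA. A stretch of at least 30 bp of A and G only was in 39.3% of the 3853 peaks with no 20 bp GA run, and another purine-only repeat unit in 9.21%. Over all peaks such stretches were in 81.0%, against 4.68% of windows, and the median longest stretch was 55 bp against 11 bp. In the 669 peaks without even 8 bp of GA, the words furthest above windows were GAGAGGGA (29.6% against 1.54%), AGAGGGAG (27.8% against 2.01%) and GGAGAGAG (24.2% against 1.49%), in which G replaces A or is added to the alternation. Among the same 20 words were 3 with a C, such as AGAGCGAG (12.7% against 0.273%). The AGCG unit formed runs in 25 peaks (0.171%, 0.111 to 0.252) and in 0 of 13164 windows, a log2 odds ratio of 5.52 (1.48 to 9.56). Of these 25 peaks 14 had no GA run, 12 of the 14 lay at promoters and 12 were shared with another construct.

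These alternative forms are shown by 2 unshared peaks that touch no exon, chosen after their values were seen. The first has an AGCG run and no 20 bp GA run, and the second a long purine tract and no 8 bp of GA. Capitals mark the run or the part of the tract inside the window.
chr11:11744699-11744848, intron of Ikzf1: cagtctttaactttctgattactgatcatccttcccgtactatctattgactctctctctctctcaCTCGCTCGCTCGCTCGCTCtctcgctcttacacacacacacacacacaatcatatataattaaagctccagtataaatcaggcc
chrX:168660088-168660237, intron of Msl3: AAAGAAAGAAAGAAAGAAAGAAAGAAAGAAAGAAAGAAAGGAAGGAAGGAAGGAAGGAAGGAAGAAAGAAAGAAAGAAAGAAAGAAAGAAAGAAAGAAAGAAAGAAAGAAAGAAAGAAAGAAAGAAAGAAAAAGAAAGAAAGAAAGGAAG
The AGCG run is 19 bp, below the minimum used above, since all 14 longer ones without a GA run were shared or touched an exon, and it lies next to a short GA stretch. The Msl3 tract is built of AAAG and AAGG.

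Known binding sequences of other TFs differed much less between peaks and windows. Of 18 searched on both strands, 12 (66.7%) differed between the central 200 bp of peaks and windows after adjustment, and 10 of these were lower in peaks. The AP-1 sequence TGACTCA, bound by FOS and JUN proteins, was in 5.16% of peaks and 3.30% of windows, a log2 odds ratio of 0.67 (0.50 to 0.85). The GC box GGGCGG, bound by SP family factors, was in 3.51% and 2.40% (log2 odds ratio 0.56, 0.36 to 0.77). Both were concentrated in peaks without a GA run, at 9.58% for AP-1 and 9.73% for the GC box, against 3.58% and 1.29% in peaks with a run. They were also commoner in peaks shared with another construct, at 9.58% and 9.32%, against 3.59% and 1.46% in unshared ones. These splits overlap and were not separated. The homeodomain sequence TAATTA (2.05% against 5.77%) and the NFY box CCAAT (15% against 25.9%) were lower in peaks. The GA run takes up part of the 200 bp searched, and its part in the lower values was not tested.

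ZFP319-HA stood apart from the other constructs in repeat content. A GA run was in 73.7% of its peaks and in 0 to 3.62% of the peaks of the other 23 constructs, with a median of 0.218% and TEAD1-HA highest. Any tandem repeat was in 77.8% against 0 to 39.9%, again with TEAD1-HA highest, and soft-masked (repeat) bases made up 58.0% of the central 200 bp against 8.67 to 35.9%. For these 3 of 10 traits (30%) the exact permutation test over constructs, two-sided, gave p = 0.0417 (adjusted p = 0.139). No smaller p is possible in this test with 24 constructs. The GA unit was picked because it was the commonest in these same peaks, so its first rank was largely fixed by that choice. The 3 traits also overlap in what they measure, so they are not separate results. ZFP319-HA was not extreme in its promoter share (9.56%, rank 10 of 24), GC content (47%, rank 13), median width (rank 9) or share of peaks within 10 kb of another peak of the list (23.4%, rank 11). The 73.9% of its peaks that overlapped no other construct ranked it 3rd (p = 0.125 in the exact test, adjusted p = 0.313).

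Most GA repeats of the genome lay outside the peaks. GRCm38 has 125128 perfect GA runs of at least 20 bp on the autosomes, X and Y, and 13244 of them (10.6%, 10.4 to 10.8) overlapped a ZFP319-HA peak. TEAD1-HA peaks overlapped 0.550% of the same runs, BHLHB8-HA 0.305%, SOX2-HA 0.110%, and the other constructs fewer. Among 100 repeat units with at least 200 runs in the genome, only AAAGAG runs were overlapped as often (129 of 998, 12.9%, 10.9 to 15.2). AGAGGG (4.70%) and AAAG (2.98%) came next, and CA runs were overlapped in 0.409% of 279755 cases and AT runs in 0.0563%. These overlaps count runs of other units that only lie beside a GA run. In peaks without a GA run the share was 2.30% for AAAGAG, 1.27% for AGAGGG and 0.746% for AAAG. Units with C or T were among the highest there, with 2.25% for CCG (9 of 400 runs) and 1.52% for ACTC (9 of 592).

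Run length made little difference to this share. It was 9.92% for runs of 20 to 29 bp (9.59 to 10.3), 10.7% at 40 to 49 bp, 12% at 60 to 79 bp (11.5 to 12.6) and 11.9% at 80 bp or more (10.1 to 13.98). Reads were short and kept only if they aligned to 1 place, and how far this limits the longer runs was not tested. GA runs with a CA run within 10 bp were overlapped less often, 3.79% of 26376 (3.56 to 4.02) against 12.4% of the other 98752 (12.2 to 12.6).

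The share varied more with the surroundings of the run than with its length. At most 1 kb from a protein-coding start site, 28.8% of GA runs (27.1 to 30.6) were in a ZFP319-HA peak, against 18.04% at 1 to 10 kb, 12.3% at 10 to 100 kb and 5.21% beyond 100 kb. The share rose with the GC content of the surrounding 10 kb, from 3.30% below 38% GC to 27.2% above 50% GC. Each of these held within classes of the other: at 46% GC or more it was 37.7% within 1 kb of a start and 11.9% beyond 100 kb, and below 42% GC it was 12.4% and 3.84%. Distance to the nearest peak of any other construct gave the widest range, from 31.7% of runs within 1 kb (31.0 to 32.5) to 11.8% at 1 to 10 kb, 4.52% at 10 to 50 kb and 0.755% beyond 50 kb (0.637 to 0.889). Leaving out the 1322 runs that a peak of another construct touched, the share within 1 kb was 29.9%. These are descriptions of 1 list. Nearness to a start, GC content and other constructs' peaks vary together along the genome, and ease of alignment and precipitation, which may vary with them, could not be measured here.

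**Figure D2:**
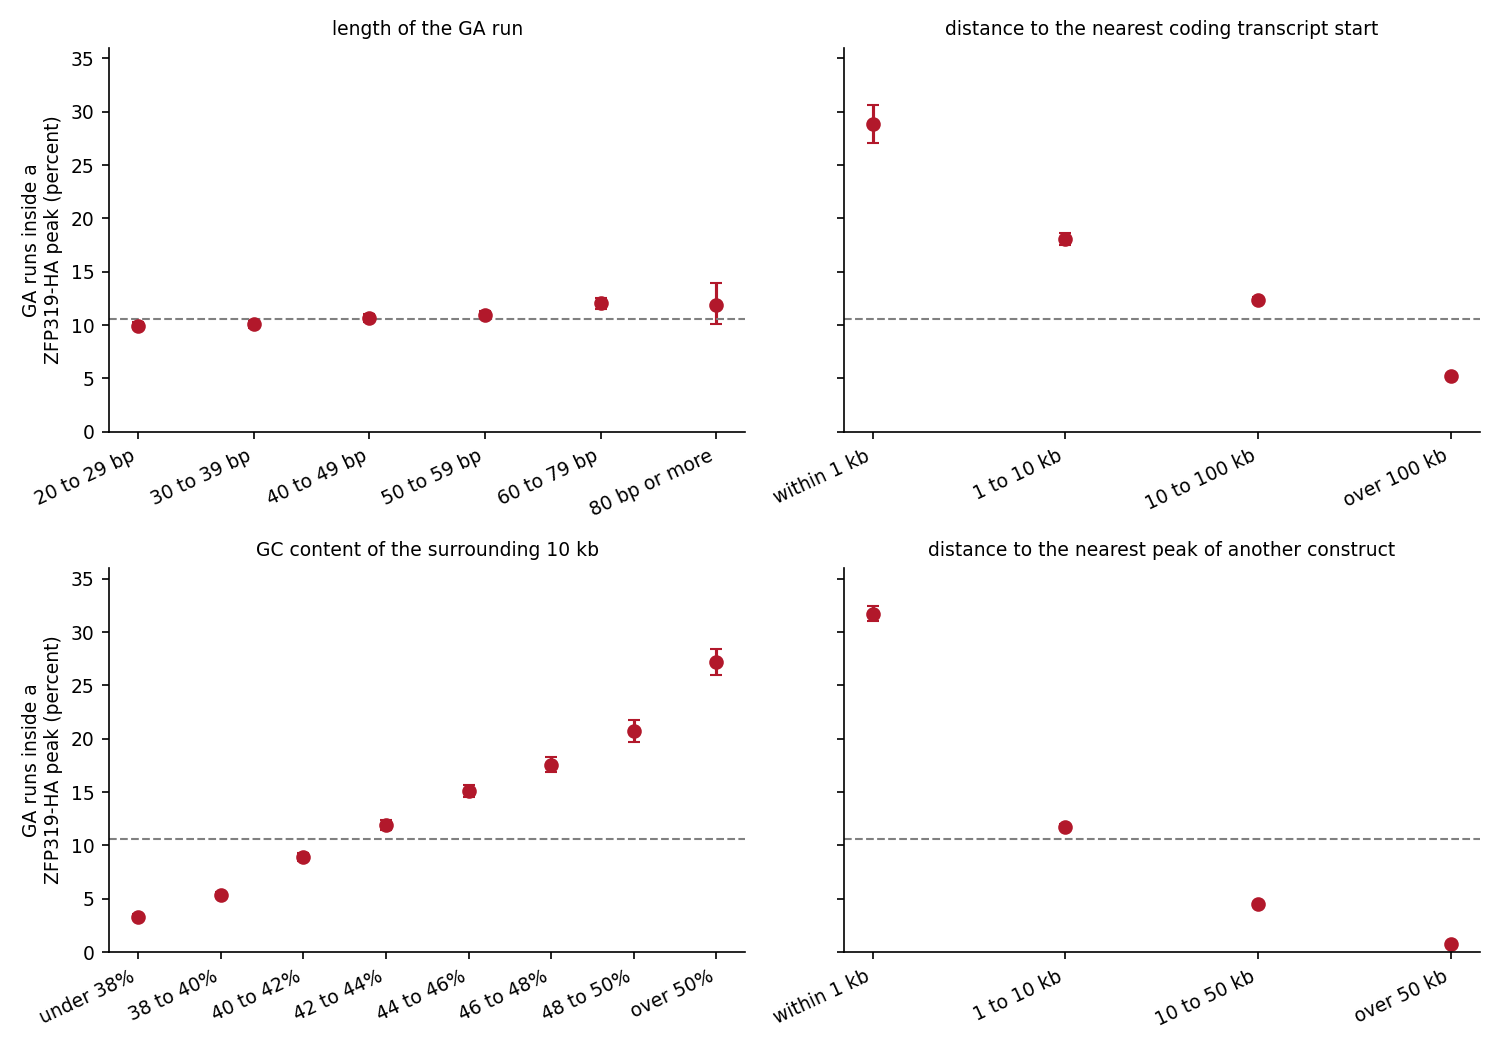
Percent of the 125128 GA runs of at least 20 bp in the genome that lie in a ZFP319-HA peak, by run length, distance to the nearest protein-coding transcript start, GC content of the surrounding 10 kb and distance to the nearest peak of another construct. Points have 95% exact intervals and the dashed line is the share over all runs, 10.6%; the points stay between 9.92% and 12.03% across lengths and run from 0.755% to 31.7% across distances to other peaks.

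Chromosomes differed in the same direction as for the other constructs. GA runs were spread evenly over the autosomes, at 45.2 to 50.1 per Mb, but ZFP319-HA peaks ran from 2.96 per Mb on chromosome 14 to 11.7 on chromosome 11, followed by chromosomes 15 (9.48) and 19 (8.74). Chromosomes 15, 19 and 11 also had the most sites of the other constructs, 111, 107 and 101 per Mb, and chromosome 14 the fewest of the autosomes, 30.8. On X there were 149 peaks (0.911 per Mb) and 162 of 6562 GA runs overlapped, and on Y 4 peaks and no overlapped run. Whether chromosome copy number in this line moves with these values was not tested.

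By position in genes, 43.9% of peak midpoints were intergenic (43.1 to 44.7), 38.1% in introns of protein-coding genes (37.4 to 38.9) and 9.56% in promoters (9.09 to 10.0), defined as no more than 1 kb from where a protein-coding transcript begins. A further 7.37% were in noncoding genes, 0.847% in untranslated regions and 0.150%, 22 peaks, in coding exons. Where classes overlapped, promoter was taken first, then coding exon, untranslated region, intron and noncoding gene. Against their share of the genome, promoters were 4.04-fold over (2.37% of bases), introns 1.12-fold and intergenic DNA 0.804-fold, and coding exons stood at 0.139-fold. Outside promoters, coding exons hold the midpoints of only 3 GA runs in the whole genome. GA runs themselves are not concentrated in promoters, which hold 2.01% of them. The other constructs had 2.19 to 45.3% of peaks in promoters, with a median of 8.77%. Within introns, the purines were on the strand of the gene in 47.3% of the 5232 runs in ZFP319-HA peaks (45.9 to 48.6) and in 48.03% of the 35818 others, a difference that did not pass Fisher's exact test (p = 0.307).

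**Figure D3:**
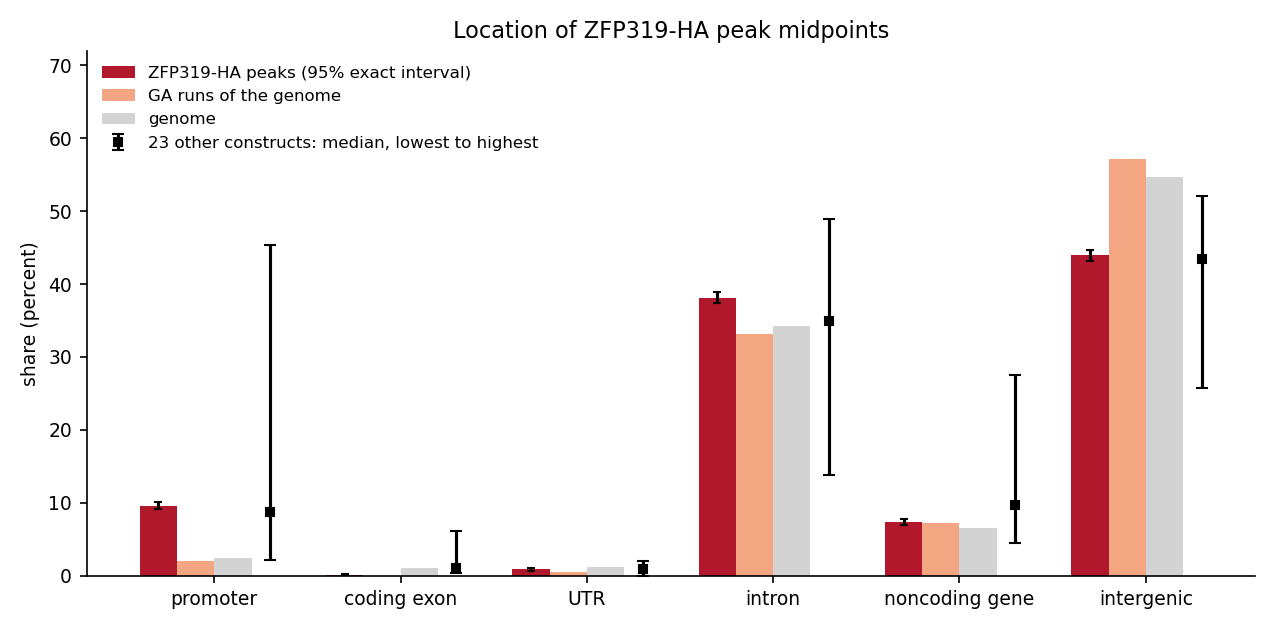
Percent of ZFP319-HA peak midpoints in each class (red, 95% exact interval), with the share of the genome's GA runs (orange) and of its bases (grey) and, in black, the median and the lowest to highest share among the 23 other constructs. Promoter peaks reach 9.56% where promoters hold 2.01% of GA runs and 2.37% of bases.

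Promoter peaks differed from the rest in sequence. A GA run was in 43.9% of the 1400 promoter peaks, against 77.1% of intronic and 77.1% of intergenic ones. The 785 promoter peaks without a run had a median GC content of 57% in their central 200 bp, and 31.5% of them (28.2 to 34.8) overlapped no other construct. The 615 promoter peaks with a run had 47.5% GC, and 68.1% (64.3 to 71.8) were unshared. GAGAGAGA was in 64.2% of the first and 94.8% of the second. Outside promoters, 84.2% of peaks with a run and 51.9% of those without were unshared.

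Of all ZFP319-HA peaks, 10825 (73.9%, 73.2 to 74.6) overlapped no peak of the other 23 constructs by as much as 1 bp. Another 11.5% overlapped 1 construct, 10.1% overlapped 2 to 4, 3.84% overlapped 5 to 9, and 99 peaks (0.676%) overlapped 10 or more, up to all 23. Unshared peaks had a GA run in 83.0% of cases (82.3 to 83.7) and shared ones in 47.3% (45.7 to 48.9), a log2 odds ratio of 2.44 (2.33 to 2.56). They were less often at promoters (6.15% against 19.2%, log2 odds ratio -1.86, -2.02 to -1.70) and more often in introns (40.2% against 32.3%) and intergenic DNA (45.5% against 39.5%). All 6 traits compared (100%), which included GAGAGAGA and any tandem repeat, passed Fisher's exact test after adjustment. The share with a GA run fell step by step, from 58.7% with 1 other construct to 41.6% with 2 to 4, 34.6% with 5 to 9 and 10.1% with 10 or more. The promoter share did not follow such an order: it was 20.1% with 1 other construct and 24.2% with 2 to 4, but 5.33% with 5 to 9, below the 6.15% of unshared peaks, and 9.09% with 10 or more. Shared peaks were also wider, with medians of 284 bp for unshared peaks and 405 bp at 10 or more constructs, and a wider peak has more room to overlap.

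Sorted by the longest GA run in the peak, the unshared share rose from 22.4% of peaks with less than 8 bp (19.3 to 25.8) to 36.2% at 8 to 11 bp, 66.4% at 12 to 19 bp and 79.1% at 20 to 29 bp. From 30 bp on it changed little, at 83.3% for 30 to 49 bp, 84.8% for 50 to 79 bp and 82.6% at 80 bp or more (75.01 to 88.6). The promoter share went the other way, from 32.4% to 5.08% at 50 to 79 bp, and was 12.1% (7.09 to 18.9) in the 132 peaks with a run of 80 bp or more. Peaks at 10 or more constructs made up 10.3% of those with less than 8 bp and 0.0958% of those with 50 to 79 bp.

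**Figure D4:**
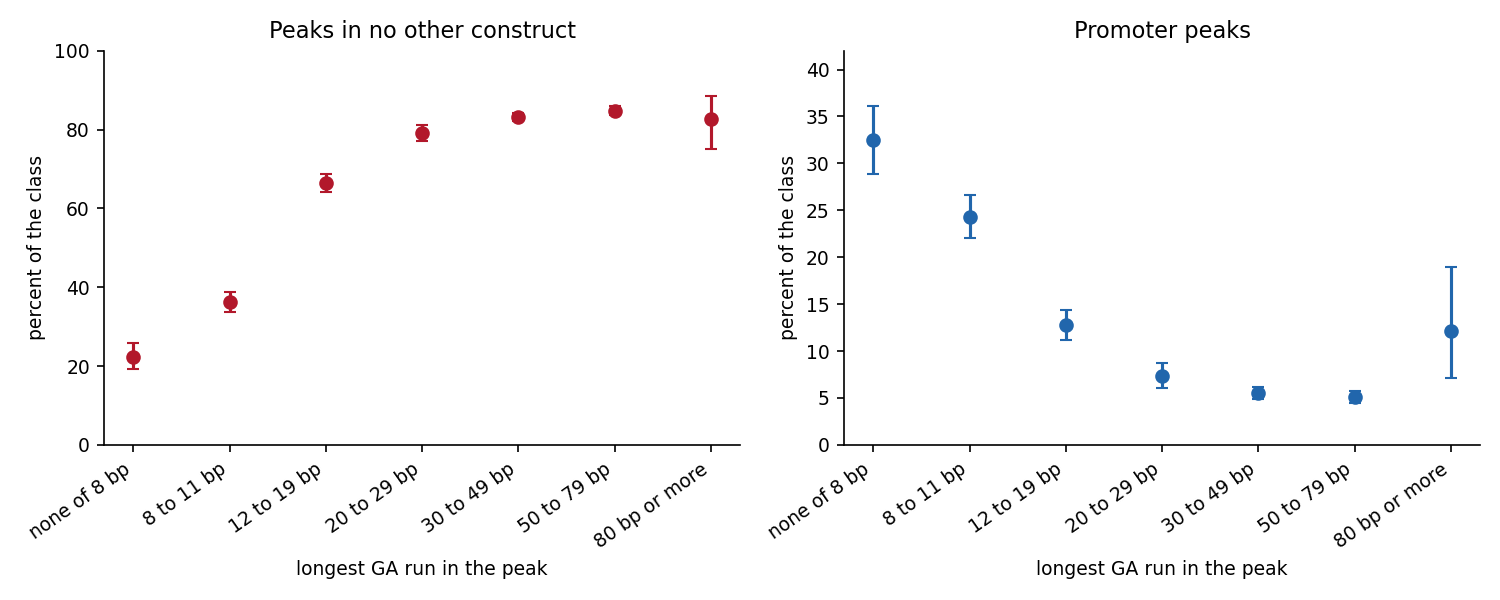
ZFP319-HA peaks sorted by the longest GA run they hold, in bp. Left: percent of each class that overlaps no other construct, from 22.4% to 84.8%. Right: percent of each class within 1 kb of a protein-coding transcript start, from 32.4% to 5.08%. Bars are 95% exact intervals.

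Among single constructs, BHLHB8-HA, a basic helix-loop-helix factor with the largest lists, overlapped most ZFP319-HA peaks, 2690 (18.4%, 17.7 to 19). SOX2-HA followed with 9.60%, DLX6-HA with 8.60%, DLX1-HA with 6.84%, TEAD1-HA with 3.87% and EBF1-HA with 3.69%, down to THAP4-HA with 0.178%. The lists differ greatly in length, so each value was set beside the share expected if peaks of the same widths were placed evenly along their chromosomes. Every construct was above it, from 3.04-fold for CDX2-HA (2.14% against 0.703%) and 3.65-fold for OCT4-HA with SOX2-YPET to 6.50-fold for BHLHB8-HA and 12.7-fold for SOX2-HA. Folds over 80 were reached only by FOXA1_RR-HA, FOXA1_SW-HA, OCT4-HA, PRR3-HA and THAP4-HA, whose lists hold 151 peaks or fewer each. Of the peaks of PRR3-HA 58.1% overlapped a ZFP319-HA peak, against 3.29% of those of BHLHB8-HA. But of the 37 ZFP319-HA peaks that overlapped PRR3-HA 0 had a GA run, against 42.6% of those that overlapped BHLHB8-HA. For the other short lists this share was between 1.79% (FOXA1_RR-HA) and 7.69% (THAP4-HA). With duplicates taken singly, BHLHB8-HA gave 14.6% and 13.2%, and SOX2-HA 9.47% and 2.44%.

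**Figure D5:**
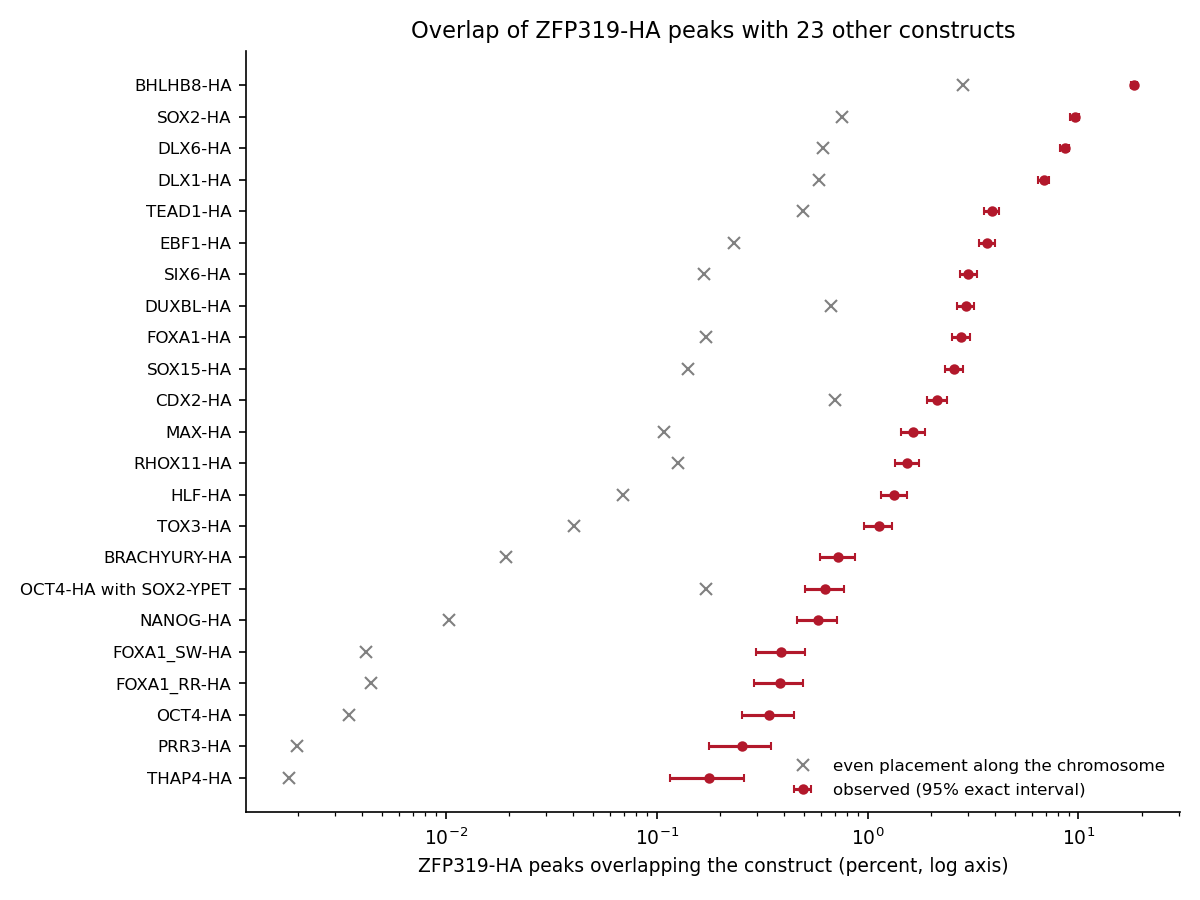
Percent of ZFP319-HA peaks that overlap each of the 23 other constructs by at least 1 bp, on a log axis, with 95% exact intervals (red), beside the percent expected under even placement along each chromosome (grey crosses). All 23 observed values lie to the right of the even-placement value, from 0.178% for THAP4-HA to 18.4% for BHLHB8-HA.

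Where another construct overlapped a ZFP319-HA peak with a GA run, its peak usually did not reach the run. For the 12 constructs with at least 50 such peaks, the other peak touched the run itself in 9.14% (DLX1-HA) to 74.5% (TEAD1-HA) of cases. BHLHB8-HA touched it in 276 of 1146 cases (24.1%, 21.6 to 26.7) and SOX2-HA in 22.1%. TEAD1-HA, with 172 of 231 (68.3 to 79.95), was the only one of the 12 over 50%. At an overlap of at least 50% of both peaks, 88.5% of ZFP319-HA peaks were unshared in place of 73.9%.

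The peaks shared most widely lacked the repeat. The 3 at the most constructs were chr1:26686946-26688254, at the promoter of 4931408C20Rik and overlapping all 23, chr4:146173741-146174028, in an intron of Zfp600, with 23, and chr17:24720598-24721817, near the start of Rps2, with 22. Their longest GA stretches were under 8, 10 and 12 bp. Among the 5 widest peaks, 3 were at promoters of genes for DNA-binding proteins: Rfx3 (1841 bp, longest GA stretch 13 bp), Nfix (1458 bp, 83 bp) and Zfp462 (1433 bp, 68 bp). The other two lay in introns of Ctnnd2 (1528 bp, 99 bp, unshared) and of Rpl21 (1384 bp, under 8 bp, 20 other constructs).

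In all, 7141 peaks (48.8%) were inside a protein-coding gene or within 1 kb upstream of one, and 70.3% of these had a GA run. At least 1 peak was assigned to 4678 of 21938 protein-coding genes (21.3%) and 2 or more to 1432 (6.53%). A promoter peak was assigned to 1425 genes (6.5%), 3 or more peaks to 614, 5 or more to 170 and 10 or more to 17. Long genes have more room: 5.29% of genes under 10 kb had a peak, 19.4% at 10 to 50 kb, 43.9% at 50 to 200 kb and 62.8% above 200 kb. Per Mb the order turned, from 10.2 peaks in genes under 10 kb to 4.51 in genes over 200 kb, although long genes had more GA runs per Mb (47.6 against 31.7).

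The genes with the most peaks were long. They were taken for their high counts, so an excess over the mean density was largely fixed by that choice. The count was highest for Gm20388, a predicted gene that spans 4436 kb in the annotation, with 49 peaks where the mean density of its chromosome would give 22.5. Fgfr2, a fibroblast growth factor receptor annotated over 2962 kb, had 32 peaks against 14.4, of which 27 had a GA run and 23 were unshared. Both spans cover other genes, whose peaks they share. Sox5, a SOX family TF, had 19 peaks in 955 kb against 5.37. Cdk14, a cyclin-dependent kinase at chr5:4803391-5420312, had 15 in 618 kb against 4.198, all with a GA run. The same span held 244 sites of the other constructs, also above their mean density on that chromosome. Their excess was larger in proportion than that of ZFP319-HA, so the density of Cdk14 was not particular to ZFP319-HA. Ebf1, a TF of B-cell and fat-cell development at chr11:44617317-45008091, had 13 in 392 kb against 4.57, all intronic and 12 with a GA run. Gas7, named for its expression in growth-arrested fibroblasts, had 11 in 235 kb against 2.73.

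Of the 17 genes with 10 or more peaks, 15 were taken by rank, with ties at 10 peaks settled by density. The others of these 15 had 10 to 17 peaks each: Gm37240, Frmd4a, Zfhx3, Ank3, Inpp4b, Prkca, Pard3b, Atxn1 and Sox6. In these 9 genes, peaks with a GA run were between 7 of 11 (Prkca, protein kinase C alpha) and 16 of 17 (Gm37240), and most peaks were intronic. Set against the GA runs each gene holds, there were 17.1 peaks per 100 runs in Zfhx3, a zinc finger and homeobox TF. This was the lowest value of the 15. The highest were 44.1 in Cdk14, 44.8 in Ebf1, 55.0 in Prkca and 68.8 in Gas7. The rest lay between 19.3 (Fgfr2) and 38.5 (Sox6). Over all protein-coding genes the value was 16.4, and over genes longer than 200 kb, as all those named here are, it was 9.48. Because the genes were ranked by peak count, high ratios were favoured by the choice. These ratios count all peaks, with or without a GA run, and are not shares of runs overlapped. They also take no account of the density of other constructs' sites. This was above the chromosome mean in each of the 15 genes, most of all in Cdk14. Prkca, for example, held 91 such sites in 412 kb, where chromosome 11 had 101 per Mb. The pair that the tie left out lay lower: Pde4d, a phosphodiesterase gene, had 10 peaks in 1505 kb against 7.60 at mean density and 10.0 per 100 runs, and Macrod2 had 10 in 1999 kb against 13.9 and 8.62 per 100 runs.

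Ranked by density among genes with at least 4 peaks, Nr2f2, which encodes the nuclear receptor COUP-TFII, came first with 5 peaks in 15.8 kb (31.7 per 100 kb). Of these, 3 were at a promoter, 1 had a GA run and 4 were shared, each with 1 other construct. Emp1, an epithelial membrane protein gene, had 4 peaks (18.5 per 100 kb, 2 with a GA run), and Axl, a receptor tyrosine kinase gene, had 4 (12.3 per 100 kb), all with a GA run and all unshared. Prrx1, a homeobox gene of limb and connective tissue mesenchyme, had 6 peaks in 69.6 kb, 4 with a GA run. Hoxa3 and the overlapping Gm28308 had 4 and 6, and Fam129b, Nploc4 and Pafah1b2 had 5, 5 and 4. Sfi1, a centrosomal protein gene, was the exception: none of its 7 peaks had 8 bp of GA, all were shared, with a median of 19 other constructs, and the gene holds no GA run of 20 bp.

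Gene lists were compared with the 21.3% of all protein-coding genes that had a peak and the 6.5% that had a promoter peak, as counts without a test. Collagen genes, which encode matrix proteins and are long (median 115 kb), had a peak in 25 of 44 (56.8%, 41.0 to 71.7), led by Col4a2 with 4, and held 20.7 peaks per 100 GA runs. Of 37 integrin and laminin genes, for cell adhesion and basement membrane, 17 (45.9%) had one, with 4 each in Itgb3, Lama2 and Lama4, and the list held 22.1 per 100 runs. Its median length was 65.4 kb, and among all genes of 50 to 200 kb, the class of both medians, 43.9% had a peak. Over all protein-coding genes there were 16.4 peaks per 100 runs, and over genes of 50 to 200 kb 19.4, near the values of both lists. Fibroblast identity genes had a peak in 11 of 20 (55.0%, 31.5 to 76.9) and a promoter peak in 5, with 6 in Prrx1, 3 in Fbn1 (fibrillin-1) and 2 each in Dcn (decorin) and Pdgfrb. Over these 20 genes there were 71.4 peaks per 100 GA runs, from only 28 runs, and 14 of their 20 peaks had a run. Their median length was 31.0 kb. Among all genes of 10 to 50 kb, 19.4% had a peak, with 25.5 peaks per 100 runs. In the Hox clusters, which set position along the body axis, 18 of 39 genes (46.2%, 30.1 to 62.8) had a peak, but overlapping genes share peaks and only 21 were distinct, 16 of them with a GA run. The Hox genes had a median length of 4.49 kb, and among all genes under 10 kb 5.29% had a peak.

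Glutamate and GABA receptor genes act in neurons and are the longest list (median 139.3 kb). Of these 39 genes 12 (30.8%) had a peak, against 43.9% of all genes of 50 to 200 kb. The receptor genes held 4.80 peaks per 100 GA runs, and 21 of their 24 peaks had a run. Grm7 had 7 of these peaks and Gria1 had 4. Olfactory receptor genes had a peak in 11 of 1093 (1.01%) and 4.19 per 100 GA runs, and 4 of their peaks were assigned to Olfr56. Replication-dependent histone genes had 1 of 67, in Hist1h2bc. Clustered protocadherin genes had 21 of 57, but all through 3 peaks in their shared span.

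Ribosomal protein genes differed from the other lists in sequence: only 1 of their 17 peaks had a GA run, and 6 were unshared. A peak was in 17 of 80 of these genes (21.3%) and a promoter peak in 13 (16.3%, against 6.5% of all genes). Their median length was 4.33 kb, and among all genes under 10 kb 5.29% had a peak. Genes named Zfp, most of which encode other C2H2 zinc finger proteins, had a peak in 52 of 391 (13.3%, 10.1 to 17.1) and a promoter peak in 7.42%, with 5 in Zfp608 and 4 each in Zfp423 and Zfp804b. The gene for the factor itself, Zfp319 at chr8:95323011-95331950, had no peak, in its coding exon or elsewhere, and the nearest one was 8.53 kb away.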

How the data were processed

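The authors sequenced anti-HA ChIP libraries with short paired reads and aligned them to mm10 with STAR 2.5.3a, keeping unique alignments. Picard took out duplicates, and only autosomes, X and Y were retained. The authors called peaks for each sample with MACS2 2.1.1.20160309 and removed those overlapping input peaks or blacklisted regions; deepTools 2.4.2 is also named in the submitters' processing notes. The deposited files list where every peak begins and ends, in bp, with no score or count, so depth is unknown and p-values, intervals and limits cover counting error only. Peaks were taken as deposited. The input sample was not analysed here.

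Sequence came from GRCm38.p6 and genes from GENCODE vM21, with coordinates counted from 1. A perfect tandem run had at least 20 bp and 3 copies of a unit of 1 to 6 bases, and both strands were counted as 1 unit, so a GA run includes AG, CT and TC. Groups came from the labels. Shares of peaks and of control windows were tested by a two-sided Fisher's exact test, with Benjamini-Hochberg adjustment at 0.05; odds ratios have 0.5 added to each cell and normal 95% intervals. Shares have exact (Clopper-Pearson) intervals. Constructs were compared with an exact permutation test over 24 constructs, with the 4 duplicates averaged. Overlap means at least 1 shared bp, and duplicate lists were merged. A gene's peaks have their midpoint in the gene or 1 kb upstream.

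Genes named are the 15 with the most peaks (ties by peaks per 100 kb; Pde4d and Macrod2, tied at 10 peaks, were added after their values were seen), the 10 densest among those with at least 4 peaks, Zfp319, up to 4 members of each gene list, and genes at the 5 widest and 3 most shared peaks. Members, lists and motifs were chosen with earlier results of these data known, and the counts of genomic GA runs and purine tracts, the sharing classes and the Cdk14, Ebf1, Sox5, AGCG and purine tract sequences were added after the values were seen. Analyses used Python 3.11.15, NumPy 2.4.6, SciPy 1.17.1, statsmodels 0.14.6 and Matplotlib 3.10.9. On simulated data, planted repeats in 15 sets of 3000 windows and planted overlaps in 4 sets were recovered exactly. Alternatives cover run length, control side, GC classes, peak width, autosomes, overlap rule, promoter size and each duplicate list.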

Additional observations from a re-analysis of the deposited data

Results flagged for a closer look

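Of 10 traits compared between ZFP319-HA and the other 23 constructs, 3 gave the smallest p the exact two-sided permutation test allows, 0.0417, and none passed after adjustment (adjusted p = 0.139 for each). The share of peaks with a tandem repeat was 73.9 percentage points above the mean of the others, with ZFP319-HA at 77.8% and TEAD1-HA next at 39.9%. The share with a GA run was 73.2 points above, at 73.7% with TEAD1-HA next at 3.62%. The share of soft-masked bases in the central 200 bp was 38.4 points above, at 58.0% with TEAD1-HA next at 35.9%. Each was higher in ZFP319-HA than in all 23 others. The GA unit was picked as the commonest in this list, and the 3 traits overlap in what they measure. ZFP319-HA has 1 library, so the library and the factor cannot be told apart.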

How the results depend on the processing

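No paired analysis was possible because ZFP319-HA has 1 list and carries no replicate number to match. The log2 odds ratios of tandem repeats, GA runs and the leading word kept their direction and stayed past the threshold with upstream windows, GC classes, peaks of at least 300 bp, unshared peaks and, added after seeing the data, without peaks at 10 or more constructs. Those of tandem repeats and GA runs also did with runs of at least 30 bp, the central 200 bp and autosomes, and that of the word in whole peaks, without tandem repeats and with chromosomes swapped. So did both comparisons of unshared with shared peaks under their alternatives. The lead of ZFP319-HA over the mean of other constructs kept its size among constructs with at least 500 peaks, at 73.5 points for tandem repeats and 73.3 for GA runs, but 18 constructs cannot give a p below 0.0556. The promoter share moved from 9.56% to 5.88% within 500 bp, 14.6% within 2 kb, 14.4% with all transcripts, 12.9% in peaks of at least 300 bp and 6.15% in unshared peaks. The unshared share moved from 73.9% to 88.5% with a reciprocal overlap of 50% and 62.1% in peaks of at least 300 bp, and leaving out each duplicate list gave 73.9 to 76.4%. Genes with 2 or more peaks fell from 1432 to 599 with peaks of at least 300 bp. The median width was 13.2 bp above the mean of the others, and -22.4 bp among peaks of at least 300 bp. The cause of these shifts was not tested, beyond the fewer peaks and other boundaries that each alternative sets by construction. With no read numbers, depth could limit any of these counts.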
